A study of Oryza sativa with 6 samples.

Results

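Xyloglucan endotransglucosylase/hydrolases, abbreviated XTH, are the loci whose protein name in the deposited tables contains "Xyloglucan endotransglucosylase". Of the 6922 loci in either of 2 tables of rice seedlings, 13 carried that name. The table of the libraries labelled knock-down held 10 of them and the over-expression table held 9, with 6 in both. Each table lists loci with an unadjusted p of at most 0.05, so every locus described here passed that filter in at least 1 comparison. XTH loci outside this filter are not analysed here, and the counts below are therefore not shares of the whole gene family.

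Xyloglucan is a hemicellulose that coats and links cellulose microfibrils in the primary wall of plant cells. XTH enzymes are secreted into the wall, where they cut a xyloglucan chain and either join the cut end to another xyloglucan chain or release it by hydrolysis. The family is known for its part in loosening and rebuilding the wall as cells expand, and grass walls hold less xyloglucan than those of most other flowering plants.

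The 6 libraries came from seedlings 5 weeks old of the indica rice cultivar Pusa Basmati 1, in 3 groups of 2. These were wild type, an OsRDR3 over-expression transgenic group and a transgenic group labelled knock-down. OsRDR3 is an RNA-dependent RNA polymerase, an enzyme that copies RNA into double-stranded RNA. The sources used here name neither promoter nor construct nor the number of independent lines, and are silent on whether each replicate was a different plant. The p-values may therefore reflect technical spread between libraries. Levels are in FPKM, fragment numbers scaled to transcript length and library size, which allows genes to be compared per length. Each table gives 1 pooled FPKM per group and locus, so no spread between replicates can be given and depth per library is unknown.

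The polymerase locus BGIOSGA002194 serves as the check of the labels. In the authors' deposited tables it stood 296-fold above wild type in over-expression and 366-fold above it in the libraries labelled knock-down, from wild-type levels of 0.198 and 0.190 FPKM. If this locus is the target, the latter goes against the label, and directions below describe libraries under that label, not loss of the gene. Another locus named RNA-dependent RNA polymerase, BGIOSGA009008, rose from 4.40 FPKM to 7.63 FPKM under the knock-down label with q = 0.000868 by the authors' deposited table. It was not listed in over-expression.

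The 13 XTH loci lay on 8 chromosomes, in coordinates of a genome build that the sources used here leave unnamed. Their transcribed spans ranged from 972 to 3665 bp with a median of 1402 bp. Chromosome 6 held 4 of them, chromosomes 3 and 4 held 2 each, and chromosomes 2, 7, 8, 10 and 11 held 1 each. All 13 carried the Gene Ontology terms for the cell wall, for the apoplast (the space outside the plasma membrane) and for xyloglucan:xyloglucosyl transferase activity. Terms for hormone or stress responses were given to few. Response to auxin and response to mechanical stimulus were each assigned to 3 loci, BGIOSGA035393, BGIOSGA023532 and BGIOSGA020606.

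Wild-type levels of the XTH loci ranged from 0.190 to 114 FPKM in the authors' deposited tables. BGIOSGA028246, on chromosome 8 from 8958442 to 8959413, had the highest, at 109 FPKM by the authors' deposited table of the knock-down label. That level exceeded 96.9% of the 4341 loci listed there. BGIOSGA020606 followed at 70.5 FPKM and BGIOSGA023534 at 11.3 FPKM by the authors' deposited table. A middle set of BGIOSGA009412, BGIOSGA011601, BGIOSGA014404 and BGIOSGA035393 stood between 3.04 and 4.44 FPKM by the authors' deposited table, and without replicate values their order cannot be resolved. BGIOSGA023532, listed in the over-expression table alone, had 5.27 FPKM in wild type by the authors' deposited table. Wild-type levels under 1.5 FPKM were found for BGIOSGA025694, BGIOSGA008858, BGIOSGA022835, BGIOSGA032372 and BGIOSGA017422, the last at 0.190 FPKM by the authors' deposited table. The wild-type values of the same loci were a median of 1.04 times as high in the over-expression table over the 1714 loci in both, with a range from 1.04 to 1.05, so the tables are scaled separately by a nearly constant factor.

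**Figure D1:**
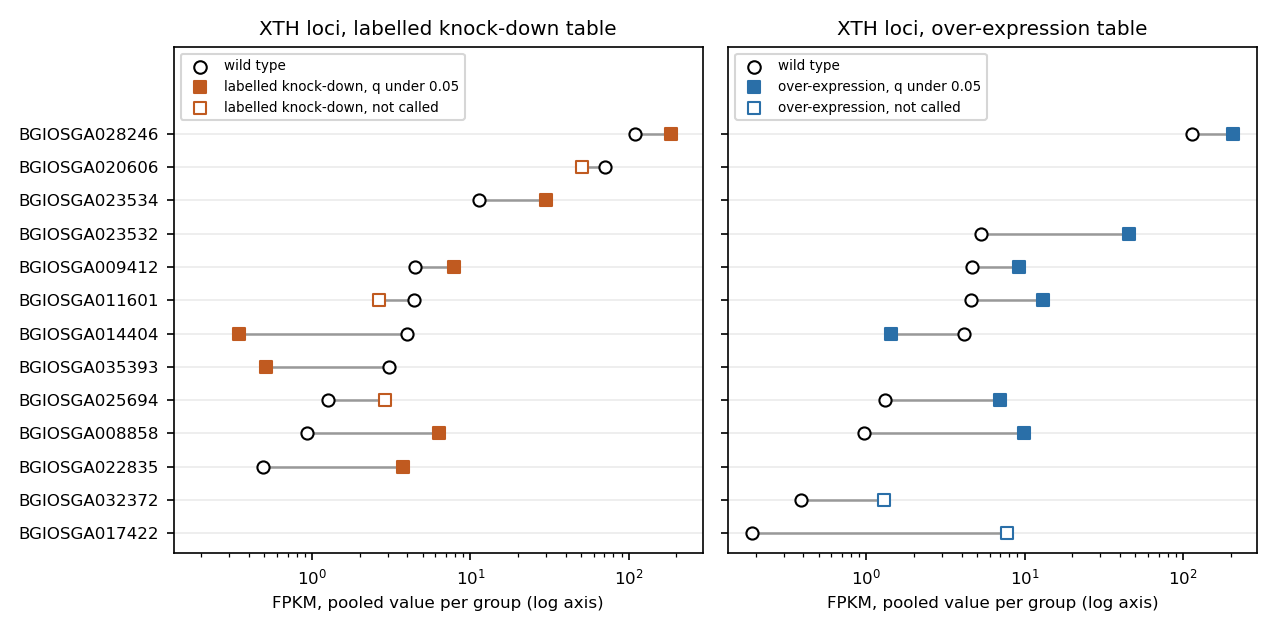
Levels of the XTH loci in FPKM (log axis) by locus, with 1 pooled value per group: circles are wild type, squares are the transgenic group, filled where q was under 0.05. BGIOSGA028246 is highest in each group, and the squares of BGIOSGA014404 lie to the left of the circles in both panels.

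Set against wild type, the libraries labelled knock-down show which XTH transcripts differ under that label. XTH loci changed in both directions. A locus was called where the q-value in the authors' deposited table, their p-value adjusted for the number of loci, was under 0.05. Of 10 listed XTH loci, 5 rose and 2 fell, while 17.6% of all 4341 listed loci were called higher and 36.7% were called lower. The rises ranged from 1.70-fold to 7.64-fold. In these whole seedlings, fewer cells of a type and less RNA per cell cannot be told apart.

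Without a pseudocount the largest rises were at loci of low wild-type level. BGIOSGA022835, on chromosome 6 from 14177139 to 14180803, was at 0.487 FPKM in wild type against 3.72 FPKM under the knock-down label by the authors' deposited table, or 2.93 as log2 fold change, with q = 0.0114. BGIOSGA008858, on chromosome 2 from 30484546 to 30486444, was at 0.923 and 6.36 FPKM by the authors' deposited table, or 2.78 as log2 fold change, with q = 0.000868. That q is the lowest in the table. With a pseudocount of 1 FPKM these log2 fold changes were 1.67 for BGIOSGA022835 and 1.94 for BGIOSGA008858, in reversed order. Smaller folds were found at the more abundant loci. BGIOSGA023534, on chromosome 6 from 31071730 to 31073131, went from 11.3 FPKM to 29.9 FPKM by the authors' deposited table, with a log2 fold change of 1.41 and q = 0.000868. The most abundant locus, BGIOSGA028246, rose from 109 FPKM to 185 FPKM by the authors' deposited table, or 0.76 as log2 fold change, with q = 0.000868. BGIOSGA009412, on chromosome 3 from 40418597 to 40419778, rose from 4.44 FPKM to 7.89 FPKM by the authors' deposited table, or 0.83 as log2 fold change, with q = 0.0132. In FPKM the rise of BGIOSGA028246 was by far the greatest of the 10, although its fold was the smallest of the 5 rises.

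The falls ended at levels under 1 FPKM. BGIOSGA014404, on chromosome 4 from 29320188 to 29321301, was at 3.97 FPKM in wild type against 0.346 FPKM under the knock-down label by the authors' deposited table, an 11.5-fold fall with q = 0.0270. Its log2 fold change of -3.52 was the 21st lowest of the 4341 loci by the authors' deposited table. BGIOSGA035393, on chromosome 11 from 16537279 to 16539973, fell from 3.04 FPKM to 0.509 FPKM by the authors' deposited table, 5.97-fold, with q = 0.0248. Its annotation also names unidimensional cell growth and response to low light intensity. With a pseudocount of 1 FPKM the log2 fold changes of these loci were -1.88 and -1.42, ranks 54 and 192 from the lowest. Neither fall was called at q under 0.01, where 3 XTH loci were higher and 0 lower, against 10.3% and 22.2% of all listed loci.

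The other 3 listed XTH loci were not called. BGIOSGA025694, on chromosome 7 from 15884324 to 15885930, stood at 1.26 and 2.87 FPKM with q = 0.0677 by the authors' deposited table. BGIOSGA020606, on chromosome 6 from 31083440 to 31084478, stood at 70.5 FPKM in wild type against 50.9 FPKM under the knock-down label with q = 0.0533 by the authors' deposited table. BGIOSGA011601, on chromosome 3 from 735495 to 736521, stood at 4.37 and 2.64 FPKM with q = 0.134 by the authors' deposited table. The median log2 fold change of the 10 loci was 0.80, beside -0.58 over all listed loci. Taken relative to that table median, BGIOSGA020606 turned from -0.47 to 0.11, and the other 9 loci kept their signs. The 5 rises and 2 falls stood as before, while over all listed loci this centring turned 766 higher and 1592 lower calls into 895 and 1462.

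The over-expression libraries were set against the same wild-type libraries. Called XTH loci were higher with 1 exception. Of 9 listed loci, 6 rose and 1 fell, while 37.9% of the 4295 listed loci were called higher and 13.6% lower. The rises ranged from 1.82-fold to 10.3-fold. At q under 0.01 the 6 rises were still called and the fall was not, against 21.2% and 5.4% of all listed loci.

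Without a pseudocount BGIOSGA008858 had the largest called fold, from 0.963 FPKM to 9.89 FPKM by the authors' deposited table, or 3.36 as log2 fold change, with q = 0.00105. BGIOSGA023532, on chromosome 6 from 31059978 to 31061191, rose from 5.27 FPKM to 45.9 FPKM by the authors' deposited table, 8.71-fold, with q = 0.00105. This locus is annotated with responses to auxin, gibberellin, brassinosteroid, heat and cold. Among the 9 listed loci it was the second most abundant in wild type as well as in over-expression. BGIOSGA020606, at 70.5 FPKM in wild type by the authors' deposited table of the knock-down label, was not listed here. BGIOSGA025694 rose from 1.31 FPKM to 6.94 FPKM by the authors' deposited table, or 2.41 as log2 fold change, with q = 0.00105. BGIOSGA011601 rose from 4.56 FPKM to 13.0 FPKM by the authors' deposited table, or 1.51 as log2 fold change, with q = 0.00105. Lower folds were again seen for BGIOSGA028246 and BGIOSGA009412. BGIOSGA028246 rose from 114 FPKM to 207 FPKM by the authors' deposited table, or 0.86 as log2 fold change, with q = 0.00105. BGIOSGA009412 rose from 4.63 FPKM to 9.20 FPKM by the authors' deposited table, or 0.99 as log2 fold change, with q = 0.00485.

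BGIOSGA014404 was the 1 XTH locus that fell in over-expression, from 4.13 FPKM to 1.44 FPKM by the authors' deposited table, 2.88-fold, with q = 0.0220. Its log2 fold change of -1.53 was the 55th lowest of the 4295 loci by the authors' deposited table. A further 2 loci were not called. BGIOSGA017422, on chromosome 4 from 34678104 to 34679554, stood at 0.190 FPKM in wild type against 7.68 FPKM in over-expression by the authors' deposited table, or 5.34 as log2 fold change, with q = 0.142. BGIOSGA032372, on chromosome 10 from 1032689 to 1036258, stood at 0.386 and 1.30 FPKM with q = 0.152 by the authors' deposited table. Their wild-type levels exceeded those of 1.77% and 6.15% of the listed loci. With a pseudocount of 1 FPKM the log2 fold change of BGIOSGA017422 was 2.87, just under the 2.90 of BGIOSGA023532. BGIOSGA008858 was at 2.47 on that scale, so the order of the largest called folds turned.

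The median log2 fold change of the 9 loci was 1.75, beside 0.67 over all listed loci. Relative to that table median, BGIOSGA028246 and BGIOSGA009412 were at 0.19 and 0.32, and BGIOSGA008858 at 2.69. The 9 loci kept their signs, while over all listed loci this centring turned 1626 higher and 585 lower calls into 1381 and 829.

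**Figure D2:**
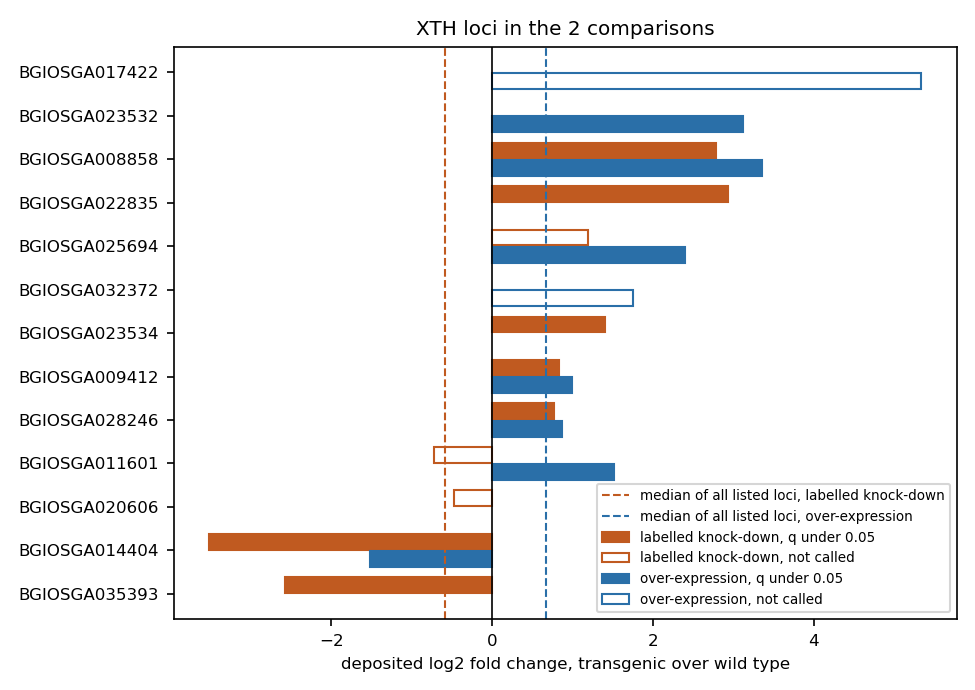
Deposited log2 fold change of each XTH locus, transgenic over wild type, with orange bars for the libraries labelled knock-down and blue bars for over-expression, filled where q was under 0.05; dashed lines are the medians of all listed loci, -0.58 and 0.67. Bars of BGIOSGA014404 point left in both comparisons, and those of BGIOSGA011601 point in opposite directions, the left one not called.

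The 6 XTH loci in both tables allow levels in the transgenic groups to be set side by side, each relative to the wild-type value of its own table. The comparisons share their wild-type libraries, and no test of the transgenic groups against each other was available. BGIOSGA028246 was 1.07 times and BGIOSGA009412 1.12 times as high in over-expression as in the libraries labelled knock-down. BGIOSGA008858 was 1.49 times and BGIOSGA025694 2.32 times as high. Without a pseudocount the widest gaps were at BGIOSGA011601, 4.72 times as high in over-expression, and at BGIOSGA014404, 3.98 times as high. Thus BGIOSGA014404, called lower in each table, was lowest in the libraries labelled knock-down, at 0.346 FPKM. Over all 1714 loci in both tables the median of this ratio was 1.26. With a pseudocount of 1 FPKM the log2 fold changes of BGIOSGA014404 were -1.88 under the knock-down label and -1.08 in over-expression. Those of BGIOSGA025694 were 0.78 and 1.78, so its gap was then the wider of these loci. BGIOSGA011601, at -0.56 and 1.33, kept the widest gap.

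BGIOSGA028246 made up most of the summed XTH level. In the libraries labelled knock-down the 10 listed loci summed to 209 FPKM in wild type against 290 FPKM under the label, of which this locus made up 52.1% and 63.8%. Without it the other 9 loci summed to 100.2 and 105 FPKM. In over-expression the 9 listed loci summed to 135 and 302 FPKM, and without BGIOSGA028246 the other 8 went from 21.4 FPKM to 95.3 FPKM. These sums cover listed loci alone, which differ between the tables, and carry no test.

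**Figure D3:**
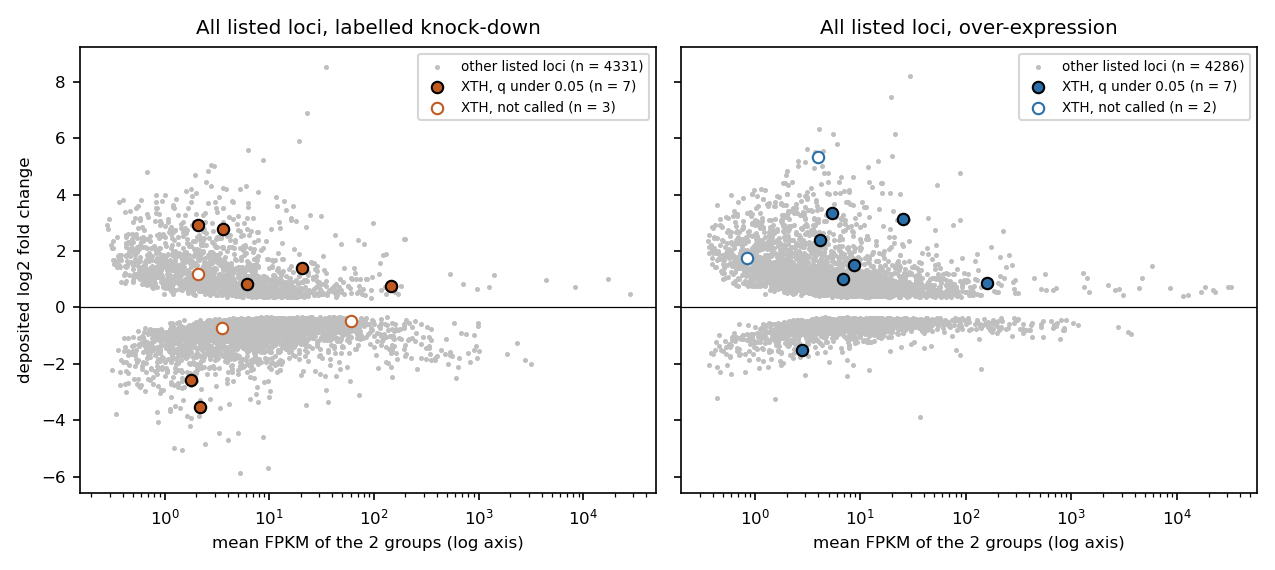
Deposited log2 fold change of every listed locus against its mean FPKM in the 2 groups (log axis), grey for other loci and coloured for XTH loci, filled where q was under 0.05. The empty band around 0 reflects the listing of loci with p of at most 0.05, and the XTH loci lie within the cloud of other loci, with BGIOSGA028246 farthest to the right among them.

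Neighbouring copies on chromosome 6 differed in level. BGIOSGA023532, BGIOSGA023534 and BGIOSGA020606 lay in a row, separated by 10538 and 10308 bp, and shared the terms cell wall modification and primary root development. In wild type they stood at 5.27, 11.3 and 70.5 FPKM by the authors' deposited tables. The middle copy rose in the libraries labelled knock-down, while BGIOSGA020606 was at 0.722 of wild type and was not called. BGIOSGA023532 rose in over-expression. The copies without a listing in a table are not analysed there. The sources used here do not say how reads matching several copies were divided, so the value of any single copy is uncertain where copies are near-identical.

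The loci whose pair of log2 fold changes lay nearest to that of each XTH locus were sought among 310 other loci with a protein name in both tables. Distance is Euclidean over the 2 deposited log2 fold changes, so it rests on 2 comparisons that share wild type and describes these values alone. Nearest to BGIOSGA008858 were a fatty acyl-CoA reductase (BGIOSGA031292), which makes fatty alcohols, at a distance of 0.27, and a 3-ketoacyl-CoA synthase (BGIOSGA023202), which elongates fatty acids, at 0.66. Next came non-specific lipid-transfer protein 3 (BGIOSGA034680) at 0.70. All these 3 loci were called higher in each table, with log2 fold changes from 2.15 to 3.15 by the authors' deposited tables.

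Among the 3 loci nearest to BGIOSGA011601 were 2 of the cytoskeleton. A tubulin beta chain (BGIOSGA001879), a building block of microtubules, lay at a distance of 0.14, at log2 fold changes of -0.62 under the knock-down label and 1.41 in over-expression by the authors' deposited tables. Actin-3 (BGIOSGA009494), which forms actin filaments, lay at 0.28, with -1.0 and 1.52 by the authors' deposited tables. Both were called in each table, unlike BGIOSGA011601, which was called in over-expression alone. Metallothionein-like protein 2C (BGIOSGA019039) lay at 0.40 and was called in over-expression alone.

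The 3 loci nearest to BGIOSGA014404 lay farther off than those nearest to BGIOSGA011601. The glycosyltransferase BGIOSGA004012 lay at 0.55, and the serine/threonine protein kinases BGIOSGA000786 and BGIOSGA002159 at 0.61 and 0.63, each called lower in both tables. Under the knock-down label BGIOSGA004012 went from 1.61 FPKM to 0.193 FPKM and BGIOSGA000786 from 1.65 FPKM to 0.219 FPKM by the authors' deposited table. These distances use no pseudocount, so they rest in part on low levels. For BGIOSGA025694 the nearest were a peroxidase (BGIOSGA014933), auxin response factor 16 (BGIOSGA022468), a transcription factor of auxin signalling, and an acyl-[acyl-carrier-protein] hydrolase (BGIOSGA022278), at 0.34, 0.35 and 0.37. All 3 were called higher in over-expression, but under the knock-down label only the hydrolase was called. BGIOSGA028246 and BGIOSGA009412 had nearer neighbours, the closest to BGIOSGA028246 at 0.05. Mitogen-activated protein kinase 5 (BGIOSGA010959), a stress-signalling kinase, was among the 3 nearest of each but was called in neither table. The others were a protein-L-isoaspartate methyltransferase (BGIOSGA014864) and a potassium transporter (BGIOSGA012582) for BGIOSGA028246, and a flavin monooxygenase (BGIOSGA031436) and an auxin-responsive protein (BGIOSGA018702) for BGIOSGA009412. Of these the transporter was called higher in both tables and the auxin-responsive protein in over-expression alone. The methyltransferase and the monooxygenase were called in neither.

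Other loci for wall polymers were matched by 14 keyword lists of protein names, leaving out XTH. In the libraries labelled knock-down 21 such loci were listed, of which 5 rose and 5 fell, or 8 and 2 relative to the table median. The shares over all listed loci were 17.6% higher and 36.7% lower. Their log2 fold changes had a median of 0.37, which became -0.35 among loci with a mean of at least 1 FPKM. Of 6 beta-galactosidases, which remove galactose from wall polysaccharides, 4 rose and 0 fell, also relative to the table median, and BGIOSGA006862 went from 0.824 FPKM to 2.68 FPKM by the authors' deposited table. The other rise was the class IV chitinase BGIOSGA014808, which cleaves chitin of fungal walls, with a log2 fold change of 1.71 by the authors' deposited table.

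The 5 falls included cellulose synthases, which make cellulose. Of 6 cellulose synthase loci 2 fell and 0 rose, a share near the 36.7% over all listed loci, and both turned higher relative to the table median. The catalytic subunit locus OsCesA1 (BGIOSGA018714) went from 78.6 FPKM to 52.9 FPKM and BGIOSGA025466 from 16.6 FPKM to 12.0 FPKM by the authors' deposited table. An endoglucanase (BGIOSGA009019), 1 called of 2, fell from 8.22 FPKM to 5.22 FPKM by the authors' deposited table. A COBRA-like protein (BGIOSGA018130), of a family that acts in cellulose deposition, was the 1 listed and fell from 56.6 FPKM to 39.5 FPKM by the authors' deposited table, but lay 0.06 above the table median on the log2 scale. A laccase (BGIOSGA000512), of the enzymes that polymerise lignin, fell from 3.24 FPKM to 1.33 FPKM by the authors' deposited table, 1 called of 2. The 2 pectinesterases and the 1 expansin listed, EXPA4, were not called.

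In over-expression 27 of these loci were listed, of which 16 rose and 0 fell, or 12 and 4 relative to the table median, and their log2 fold changes had a median of 1.13. Over all listed loci 37.9% were called higher and 13.6% lower, the shares against which the counts below are to be read. Of 6 pectinesterases, which remove methyl groups from pectin, 4 rose, and BGIOSGA000390 went from 1.72 FPKM to 8.26 FPKM and BGIOSGA014585 from 0.387 FPKM to 5.81 FPKM by the authors' deposited table. Of 6 cellulose synthase loci 3 rose, of which 1 stayed higher relative to the table median, OsCesA5 (BGIOSGA013897), from 10.4 FPKM to 29.3 FPKM by the authors' deposited table. Beta-galactosidases rose in 2 of 3, and BGIOSGA006862 went from 0.858 FPKM to 7.07 FPKM by the authors' deposited table. Of 4 COBRA-like loci 2 rose, the larger fold being at BGIOSGA023934, from 0.328 FPKM to 1.74 FPKM by the authors' deposited table. The other was BRITTLE CULM1 (BGIOSGA012871), known in rice for its part in culm strength, from 8.0 FPKM to 13.3 FPKM. Its log2 fold change of 0.73 was near the median of 0.67 over all listed loci. Endoglucanases rose in 2 of 2, which lay below the table median. Pectate lyases, which cleave pectin, rose in 1 of 2, with BGIOSGA015834 going from 7.17 FPKM to 22.5 FPKM by the authors' deposited table. A laccase (BGIOSGA000508), 1 called of 2, and the chitinase BGIOSGA014808 were at log2 fold changes of 1.22 and 1.13 by the authors' deposited table. The 1 listed enzyme of xyloglucan synthesis, a xyloglucan 6-xylosyltransferase (BGIOSGA010910), stood at 8.72 and 11.6 FPKM with q = 0.186 by the authors' deposited table and was not called. The lists for polygalacturonase, beta-glucosidase, xylosidase or arabinofuranosidase, and fasciclin or arabinogalactan proteins matched 0 loci in either table.

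**Figure D4:**
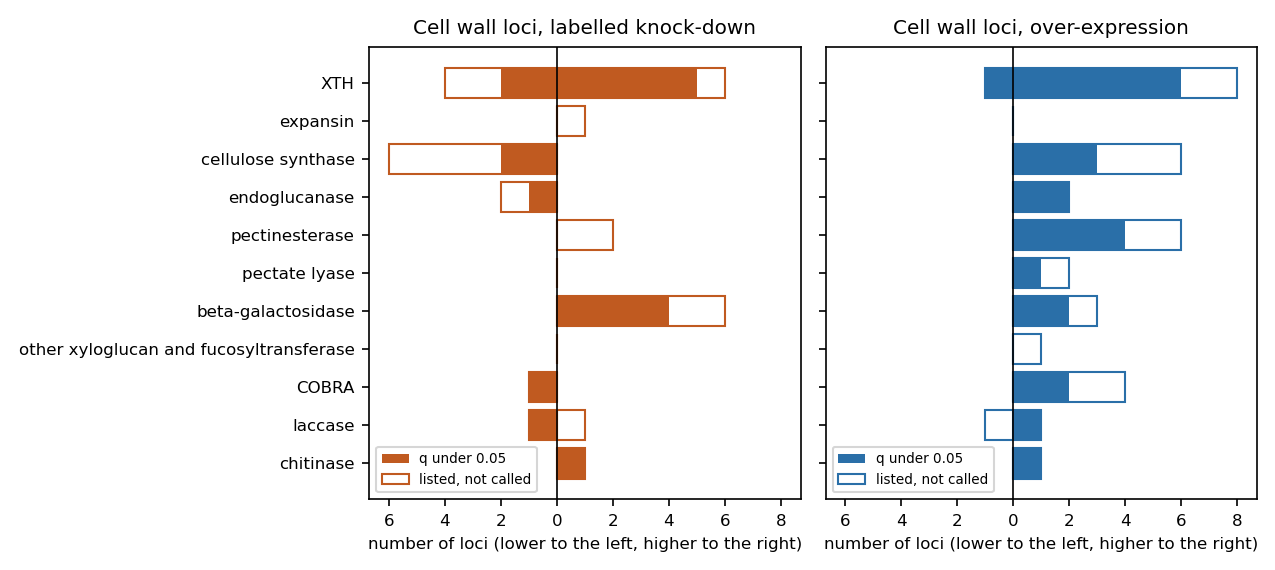
Number of listed loci below wild type (to the left of 0) and above it (to the right) for XTH and the other cell wall keyword lists with a match, filled where q was under 0.05. Cellulose synthase bars point left in the libraries labelled knock-down (2 filled of 6) and right in over-expression (3 filled of 6), directions that reverse relative to the table median for all but 1 of these 5 calls, and beta-galactosidase bars point right in both.

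Gene Ontology terms gave wider sets, again without XTH, to be read against 17.6% higher and 36.7% lower over all listed loci in the libraries labelled knock-down and 37.9% higher and 13.6% lower in over-expression. Under cell wall organization 9 of 29 listed loci rose and 5 fell in the libraries labelled knock-down, and 27 of 42 rose and 1 fell in over-expression. Relative to the table medians these became 11 and 3, and 23 and 5. Under cell wall the counts were 25 higher and 33 lower of 92, and 86 higher and 8 lower of 138, which became 28 and 30, and 69 and 25. The lower share under the knock-down label is near that of all listed loci. Under apoplast they were 20 higher and 61 lower of 103, and 40 higher and 20 lower of 91, which became 29 and 52, and 31 and 29. Cell wall biogenesis had 1 higher and 1 lower of 5, and 3 higher and 1 lower of 6, which became 1 and 1, and 2 and 2. Beyond XTH, the term xyloglucan metabolic process held 1 locus in the libraries labelled knock-down, BGIOSGA002704, uncharacterized in the tables, which fell from 4.06 FPKM to 2.22 FPKM by the authors' deposited table. The term held 0 others in over-expression.

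Lists of chlorophyll-binding and photosystem loci, for green tissue, and of histone loci were counted in the same libraries. The histone list takes any histone H2A, H2B, H3 or H4 name, H3.3 included, so it does not stand for dividing tissue alone. Of 19 listed chlorophyll-binding and photosystem loci, 16 fell and 0 rose in the libraries labelled knock-down, where 36.7% of all listed loci were called lower, and the median log2 fold change was -1.80. Summed, the 19 loci went from 17712 FPKM in wild type to 4882 FPKM under the label, and none was listed at 0. In over-expression 6 of 12 fell and 0 rose, beside 13.6% of all listed loci called lower, with a median of -0.76 and sums of 5725 FPKM in wild type against 3374 FPKM. Of listed histone loci, 4 of 9 fell in the libraries labelled knock-down, a share near the 36.7% over all listed loci, with a median of -1.16 and sums of 409 FPKM in wild type against 258 FPKM. In over-expression 7 of 17 histone loci rose, near the 37.9% over all listed loci, with a median of 1.86 and sums of 380 FPKM against 770 FPKM. These called counts were the same relative to the table medians. The sums cover listed loci alone, which differ between the tables, so they are not to be compared across tables and carry no test. Most of each wild-type histone sum came from 1 locus named histone H3.3, BGIOSGA012789, which was called in neither table. It stood at 233 FPKM in wild type against 170 FPKM under the knock-down label, and at 242 against 342 FPKM in over-expression. The part of tissue makeup in the XTH values was not tested.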

How the data were processed

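Total RNA of 6 libraries was extracted with Trizol and sequenced after Illumina library preparation, per the labels' protocols. The authors ran Cufflinks 2.2.1 and Cuffdiff, as the submitters' processing notes record. Aligner and genome build are not named in the sources used here. Per the file headers, the deposited FPKM values pool each group into 1 number for a locus. The authors' log2 fold change was recomputed from them and holds no pseudocount. P-values and q-values are used as the authors deposited them, and Cuffdiff is the comparison tool their notes name. Unassigned columns of single libraries numbered 0. Without counts, depth and counting error are unknown.

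Members were found by protein name and named in full. From each keyword list the text takes up to 2 called loci per direction with the largest change and a mean of at least 1 FPKM. Medians, counts, ranks and distances were computed with Python 3.11.15 and pandas 2.3.3, on scripts tested on simulated data. Members, lists and rules were chosen with earlier results of these data known. Percentages of called loci use listed loci as denominator. Alternatives were pseudocounts of 0.1 and 1 FPKM, q under 0.01, centring on the table median, a minimum mean of 1 FPKM and the other table's wild type. Of the members' identifiers, 0 matched the reference gene table, so no sequence or gene name is given.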

Additional observations from a re-analysis of the deposited data

How the results depend on the processing

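At q under 0.01 the XTH calls were 3 higher and 0 lower in the libraries labelled knock-down and 6 higher and 0 lower in over-expression. The other wall loci had 5 higher and 1 lower in the former and 10 higher and 0 lower in the latter. Over all listed loci the shares at that threshold were 10.3% higher and 22.2% lower in the former. In over-expression they were 21.2% higher and 5.4% lower. Centring on the table median moved the XTH medians to 1.38 and 1.08 and the medians of the other wall loci to 0.95 and 0.46. It split the other called wall loci into 8 higher and 2 lower in the libraries labelled knock-down, and into 12 higher and 4 lower in over-expression. BGIOSGA020606 turned to 0.11 in the libraries labelled knock-down. A minimum mean of 1 FPKM turned the median of the other wall loci in those libraries to -0.35, as fewer low loci remained, and a pseudocount of 1 FPKM moved it to 0.67 in over-expression. With pseudocounts of 0.1 and 1 FPKM all 19 XTH log2 fold changes kept their sign, as did the 12 recomputed with the other table's wild type. No paired analysis was possible because each column holds 1 pooled value per group, and for the same reason no replicate could be left out. Low levels and unknown depth limit the folds of loci under 1 FPKM in either group.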

Other observations

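Listed loci within 50 kb of an XTH locus, a window chosen after the data were seen, were mostly uncharacterized. Villin-4 (BGIOSGA014405), an actin-bundling protein, lay 1092 bp from BGIOSGA014404 and stood at 0.812 FPKM in wild type against 0.403 FPKM under the knock-down label by the authors' deposited table, with q = 0.0803. In over-expression it stood at 0.847 and 0.378 FPKM with q = 0.0627 by the authors' deposited table, so it was called in neither. A peroxidase (BGIOSGA023530), of the enzymes that use hydrogen peroxide in the wall, lay 33063 bp from BGIOSGA023532. It rose from 3.71 FPKM to 11.3 FPKM in over-expression with q = 0.00105, and from 3.56 FPKM to 7.0 FPKM under the knock-down label with q = 0.0128, by the authors' deposited tables. BGIOSGA022836, uncharacterized in the tables and 26952 bp from BGIOSGA022835, rose from 136 FPKM to 228 FPKM under the knock-down label with q = 0.000868 by the authors' deposited table. Called falls under that label lay near XTH loci too. They were BGIOSGA014408, 37104 bp from BGIOSGA014404, at a log2 fold change of -1.29, and BGIOSGA011603, 16369 bp from BGIOSGA011601, at -0.76. Further called neighbours, all higher, are not named, so the loci given here are examples.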
